A study of Mus musculus with 31 samples.

Results

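The 5 major urinary protein genes Mup3, Mup7, Mup17, Mup20 and Mup21 were followed across 31 mouse livers. They are 5 of 31172 gene symbols measured in every mouse and 5 of 48 symbols of the Mup family in these data. The 5 were selected on their TPM (transcript abundance scaled to a fixed total per mouse) across the 5 treatment groups of the study, so differences between treatments, and between treatments in the size of the sex difference, are given as descriptions. Where the number of the 5 genes past limma's threshold is printed for such a comparison, it describes these mice and supports nothing. The same holds where treatment groups are said not to overlap. With 2 or 3 mice of a sex in most groups, values can separate by chance. The share of all genes that did so was not counted. The sexes were not part of the rule of choice, and the differences between males and females were tested. The choice was made with earlier results of these mice known. Whether it favoured genes that differ between the sexes cannot be told. Because the genes share much of their sequence, their summed TPM is given beside each gene.

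All mice were adult hFIX-R29X animals, 8 to 14 weeks old. They carry a human factor IX minigene with the nonsense mutation R29X in place of the mouse gene, and the study used them to ask whether lowering a factor of nonsense-mediated mRNA decay restores the protein. The groups were DPBS (buffered saline, 6 females and 5 males), Control-GalNAc-ASO at 15 mg/kg (2 females and 2 males) or 20 mg/kg (3 and 3), and Upf3b-GalNAc-ASO at 10 mg/kg (2 and 3) or 20 mg/kg (2 and 3). An ASO is an antisense oligonucleotide. The Upf3b ASO pairs with the mRNA of the decay factor Upf3b so that RNase H cuts it, the control ASO has a scrambled sequence, and the GalNAc sugar carries either to hepatocytes. The mice received 6 subcutaneous doses at intervals of 5 days by the treatment protocol, whereas the dose label calls the dosing weekly, and were killed for liver RNA 48 h after dosing ended. The lower doses of the compounds were not matched (10 against 15 mg/kg). One library per mouse was made, and each mouse counted as 1 replicate.

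Major urinary proteins are small secreted lipocalins, barrel-shaped carriers made mainly by hepatocytes. They pass from the blood into the urine, where they bind volatile pheromones, release them slowly and mark the owner's identity. The genes form a large family of near copies in the mouse genome. Adult males are known to make far more of them than females, through the pulsed pattern of growth hormone that acts by way of the transcription factor STAT5. Mup20 encodes darcin, a male pheromone in its own right that attracts females.

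In the GENCODE annotation of GRCm38, 48 of 49 Mup symbols lie within 2.194 Mb of chromosome 4. The 5 genes are protein-coding and on the minus strand. Mup7 lies at chr4:60066469-60070475, Mup17 at chr4:61591929-61595871, Mup20 at chr4:62050234-62054158, Mup3 at chr4:62083476-62087342 and Mup21 at chr4:62147932-62150863. The Mup21 transcript has 6 exons and the other 4 have 7. The first 90 bases of each coding sequence, which start the secretion signal, are shown because they make visible how little separates the genes. Bases that differ from Mup17 or are extra to it in an alignment are in capitals.
Mup17: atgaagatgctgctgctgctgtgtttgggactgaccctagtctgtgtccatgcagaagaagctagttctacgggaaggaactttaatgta
Mup7: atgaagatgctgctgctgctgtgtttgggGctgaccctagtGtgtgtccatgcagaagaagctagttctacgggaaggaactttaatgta
Mup20: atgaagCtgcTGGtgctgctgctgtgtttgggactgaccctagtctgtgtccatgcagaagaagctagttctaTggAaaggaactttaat
Mup21: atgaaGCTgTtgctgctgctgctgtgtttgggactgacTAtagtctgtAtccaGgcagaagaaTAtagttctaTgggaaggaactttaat
Mup3: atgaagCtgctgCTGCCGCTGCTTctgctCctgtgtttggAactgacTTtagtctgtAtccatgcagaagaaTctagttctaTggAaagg

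Mup7 differs from Mup17 at 2 of these bases, and Mup3 has 9 other bases and 12 extra ones. Over the aligned bases of the transcripts, with gaps left out, Mup7 and Mup17 were 98.6% identical and Mup3 and Mup21 96.3%. The other pairs were between 85.3% and 90.7%. For Mup3 and Mup21 this covers 677 aligned bases, where the Mup3 transcript has 938. The share of each transcript's 31-base words found in no other gene's transcripts bears on how well reads can be assigned. It was 66.2% for Mup21, 64.9% for Mup3, 35.5% for Mup20, 13.8% for Mup17 and 1.45% for Mup7. In the last 300 bases, where reads fall in the 3′ libraries that the labels name, Mup7 had no word of its own. Values of Mup7 and Mup17 are therefore uncertain as single genes, since reads of the one, or of another Mup gene, may have been divided between them. These shares come from GENCODE M21, not from the Ensembl release against which the reads were quantified.

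The value of 1 read in each file put the reads behind the TPM of a library at 1020676 to 7391617. This is less than the average sequencing depth that the study states. The shallowest library by this measure was the female replicate 3 of Upf3b-GalNAc-ASO 10 mg/kg. Its profile was also the least like the others (median r of log2(TPM + 1) 0.873). The Y-linked Ddx3y was at 14.7 to 67.1 TPM in males and 0 to 1.95 TPM in females. Upf3b was at 33.9 to 136 TPM after DPBS and 27.1 to 135 TPM after the control ASO. After the Upf3b ASO it was at 2.57 to 16.7 TPM at 20 mg/kg and 3.95 to 53.8 TPM at 10 mg/kg. The 53.8 TPM was that shallow female, above the lowest Control-GalNAc-ASO 15 mg/kg mouse at 27.1 TPM. No 2 mice of a group had identical values, and r between mice of a group was 0.859 to 0.964.

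Mup20 had the highest median level of the 5 genes in males, Mup3 in females, and Mup21 the lowest in both. A read had the same TPM value whatever the gene, so levels here compare read shares and are not scaled by transcript length. In males Mup20 ranked between 5 and 31 among all genes of a mouse, with a median level of 6892 TPM (3761 to 11037, n = 16). Mup7 followed with 3026 TPM (841 to 7658), then Mup3 with 2806 TPM (1564 to 4724), Mup17 with 352 TPM (52.7 to 1273) and Mup21 with 95.9 TPM (34.0 to 755). In females the order was different, with Mup3 first at a median of 726 TPM (218 to 1574, n = 15). Mup20 was at 173 TPM (75.5 to 344), Mup7 at 55.2 TPM (0 to 424), Mup17 at 37.5 TPM (3.46 to 285) and Mup21 at 1.73 TPM (0 to 26.2). In 4 of the 15 females Mup21 was below the value of 3 reads, so its level there was at the limit of these depths.

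**Figure D1:**
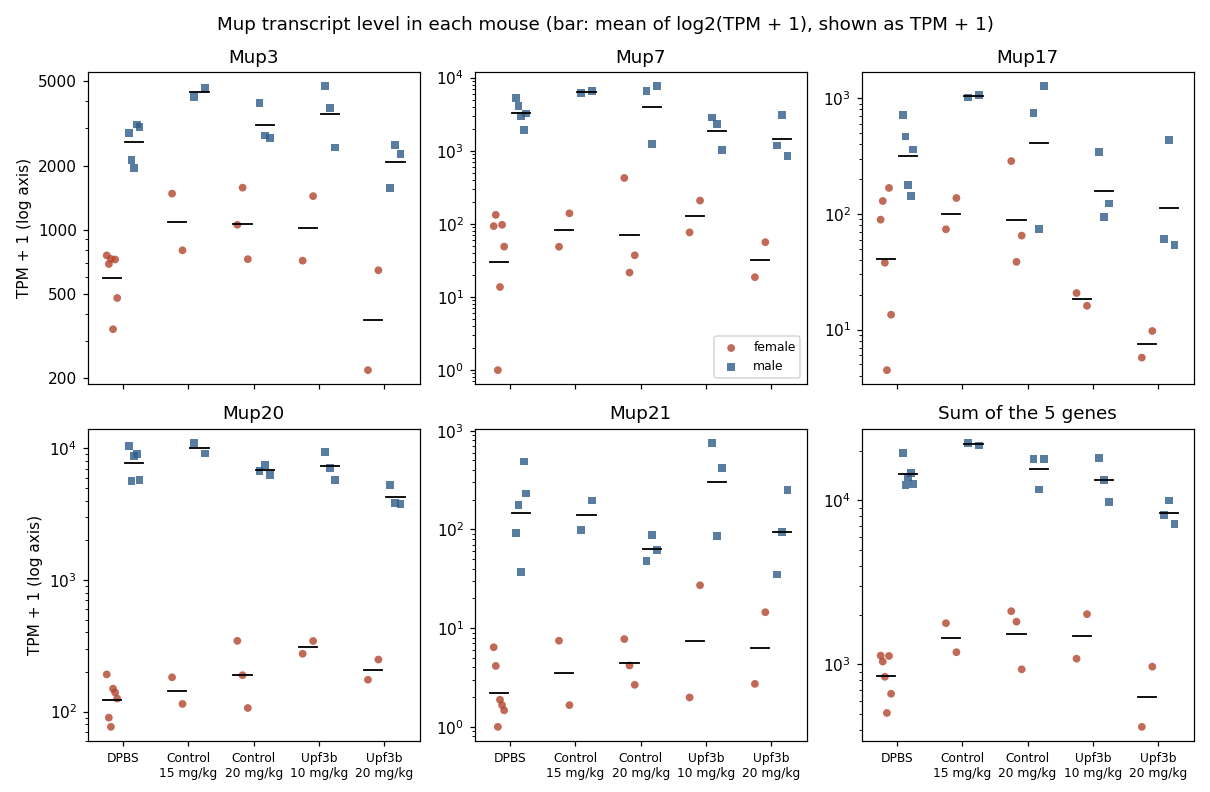
Level of each of the 5 Mup genes and of their sum, as TPM + 1 on a log axis, in every mouse by treatment group, with females as circles and males as squares and a bar at the mean of log2(TPM + 1). The sexes do not overlap for Mup7, Mup20, Mup21 and the sum, and overlap for Mup3 and Mup17.

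The 5 genes together made up 0.716% to 2.25% of all TPM in males and 0.0416% to 0.211% in females. The whole family of 48 symbols took 1.502% to 6.40% in males and 0.1% to 1.26% in females, so the 5 genes held 28.2% to 49.6% of family TPM in males and 8.98% to 45.0% in females. The make-up of the sum differed between the sexes. Mup20 was 35.1% to 65.1% of the 5-gene sum in males and 8.53% to 41.7% in females. Mup3 was 14.1% to 31.5% of it in males and 49.9% to 86.6% in females, without overlap.

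**Figure D2:**
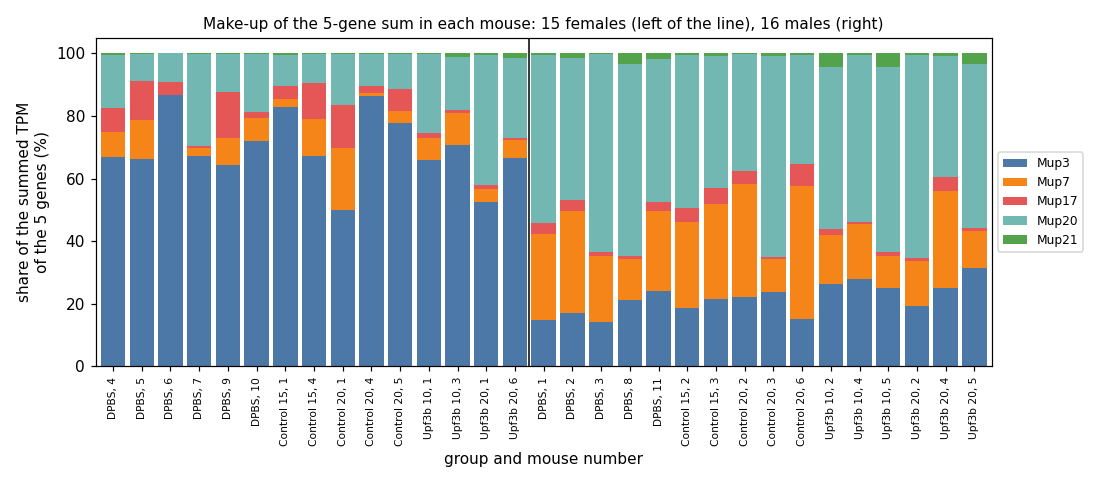
Share (%) of each gene in the summed TPM of the 5 genes, 1 bar per mouse, with the 15 females on the left and the 16 males on the right of the line. Mup3 is the largest part in each female (49.9% or more) and at most 31.5% in each male.

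Males exceeded females in the 11 DPBS mice for Mup20, Mup3 and Mup7. In this comparison 60 of 8998 tested genes (0.667%) were called higher in males, and 127 (1.41%) were called in either direction, by limma with Benjamini-Hochberg adjustment. Of the 4 Mup genes whose median reached the 5 TPM filter in both sexes, 3 were called, all higher in males. In whole liver, fewer cells of a type and less RNA per cell cannot be told apart. Mup21 passed the filter on low values only through the males, since the female median was 0.771 TPM, so it could be tested only if it differed, and its difference is given without a test.

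Mup20 was at 5658, 5751, 8780, 9099 and 10405 TPM in the DPBS males. The lowest of the 6 DPBS females was at 75.5 TPM, the median at 131.5 TPM and the highest at 190.5 TPM. The lowest male was far above the highest female, and the fitted difference was 5.97 ± 0.26 on the log2(TPM + 1) scale (62.7-fold, 95% interval 43.0 to 91.4, adjusted p = 4.21e-11).

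Mup21, a close relative of Mup3 by sequence, was at 36.3, 90.6, 175, 230.4 and 488 TPM in the males. In the females it ran from 0 to 5.41 TPM, and 3 of the 6 were below the value of 3 reads. The fitted difference was 6.04 ± 0.62, and the males themselves spread over 13.4-fold.

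Mup3 showed a smaller difference. The males were at 1955, 2120, 2847, 3025 and 3116 TPM, and the females at 340 to 756 TPM with a median of 706 TPM. The groups did not overlap, and the difference was 2.11 ± 0.24, or 4.31-fold (95% interval 3.03 to 6.12, adjusted p = 2.08e-05).

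Mup7 was at 1932, 2950, 3238, 4044 and 5316 TPM in the males and at 0 to 132 TPM in the females (median 70.0 TPM). One female, replicate 6, was listed at 0. The difference was 6.76 ± 1.19 with an adjusted p of 0.0222. The call was lost, at adjusted p of 0.0539 to 0.0709, when any 1 of replicates 1, 2, 3, 7, 8 and 11 was left out, and without replicate 6 the difference was 5.78.

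Mup17, nearly identical to Mup7, was at 142, 176, 359, 465 and 720.5 TPM in the males. The females were at 3.46 to 167 TPM with a median of 62.5 TPM, so that the highest female exceeded the lowest male. Its difference of 2.96 ± 0.90 did not pass the threshold (adjusted p = 0.231). The sum of the 5 genes was 12461 to 19379 TPM in the DPBS males and 505 to 1132 TPM in the females, 16.5-fold apart in the means.

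**Figure D3:**
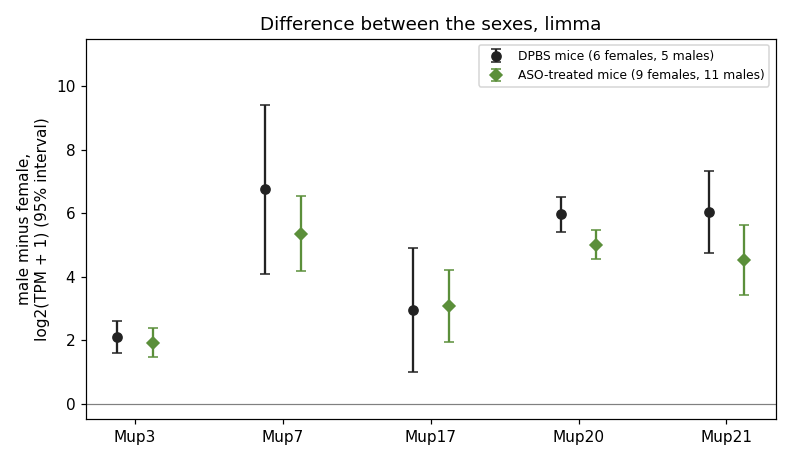
Male minus female difference in log2(TPM + 1) for each gene by limma, with 95% intervals, in the DPBS mice (circles) and in the ASO-treated mice (diamonds). For the 4 genes that passed the filter in both sexes each interval lies above 0, with Mup3 the smallest difference in both sets (2.11 and 1.92). Mup21 passed the filter only through the males, so its intervals are a description and not a test.

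The 20 ASO-treated mice gave the comparison again in animals not used above, with the treatment group in the fit. Of 9109 genes tested, 176 (1.93%) were called, 79 of them (0.867%) higher in males. The 4 Mup genes that passed the filter in both sexes were all among the 79. Mup21 again passed it only through the males (female median 3.18 TPM). Mup20 was at 3761, 6689 and 11037 TPM (lowest, median and highest of 11 males) against 105, 188 and 344 TPM in 9 females, a difference of 5.01 ± 0.23 (32.3-fold, adjusted p = 2.68e-15). Mup7 was at 841, 2837 and 7658 TPM in males and 17.7, 55.2 and 424 TPM in females, a difference of 5.36 ± 0.56 (adjusted p = 1.14e-05). Neither gene overlapped between the sexes.

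Mup21 was at 34.0, 93.9 and 755 TPM in the ASO-treated males and 0.66, 3.18 and 26.2 TPM in the females, a fitted difference of 4.53 ± 0.53. Mup3 was at 1564, 2765 and 4724 TPM in males and 218, 799 and 1574 TPM in females, a difference of 1.92 ± 0.22 (adjusted p = 1.03e-06). One female at 1574 TPM (Control-GalNAc-ASO 20 mg/kg) and one male at 1564 TPM (Upf3b-GalNAc-ASO 20 mg/kg) crossed. Mup17 was at 52.7, 344 and 1273 TPM in males and 4.73, 37.5 and 285 TPM in females, a difference of 3.08 ± 0.54 (adjusted p = 0.00306). Over all 31 mice, 7 males had less Mup17 than the highest female. Without the shallow female the 5 differences were 5.09, 5.63, 4.77, 2.02 and 3.05 in the same order, and the 4 calls were kept.

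The difference between the sexes after the Upf3b ASO was set against that after the control ASO as an interaction. It rests on the treatment groups the genes were chosen on and is a description. By limma 0 of the 5 genes and 1 of 9880 genes (0.0101%) passed the threshold. An unadjusted p under 0.05 was found for 380 of the 9880 genes and for 1 of the 5, Mup20. Its fitted male excess was smaller after the Upf3b ASO than after the control ASO (-1.09 ± 0.41, 95% interval -1.93 to -0.24). The intervals were wider for the others, -0.53 to 1.32 for Mup3, -1.497 to 3.18 for Mup17, -3.66 to 1.06 for Mup7 and -2.08 to 2.47 for Mup21. These intervals leave room for differences in the sex effect that were not detectable with 20 mice.

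Mup7 and Mup17 varied together among the males. Across the 16 males r of their log2(TPM + 1) was 0.951, and Mup17 was 4.05 to 16.6 tags for every 100 of Mup7. In the 15 females r was 0.437 and the ratio was not constant. In the 5 control-ASO females Mup17 was 67.3 to 182.5 tags per 100 of Mup7, and in the 4 Upf3b-ASO females 7.27 to 26.8. The 5 DPBS females with any Mup7 were at 26.03, 27.2, 95.7, 97.4 and 173. With group and sex means removed, r over the 31 mice was 0.611 for Mup7 with Mup17, 0.565 for Mup3 with Mup21, and 0.0396 for Mup17 with Mup20. These correlations are a description, since the genes share reads and libraries.

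**Figure D4:**
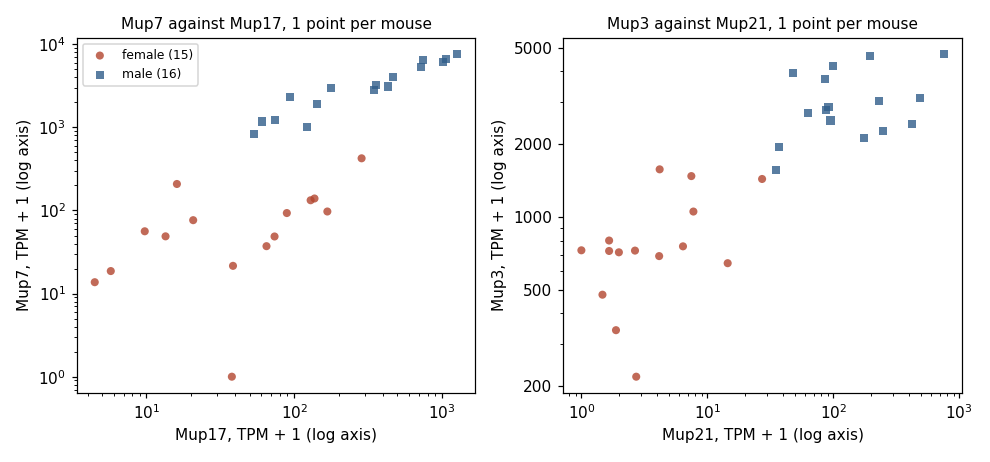
TPM + 1 on log axes, 1 point per mouse, for the pairs closest in sequence, with Mup7 against Mup17 on the left and Mup3 against Mup21 on the right. The 16 males fall near 1 line for Mup7 and Mup17 (r = 0.951), while the 15 females scatter (r = 0.437).

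Mup17 was lower after the Upf3b ASO than after the control ASO at both dose levels in the group means of each sex. At the lower doses it was at 93.3, 122 and 344 TPM in Upf3b males against 1013 and 1071 TPM in control males, and at 15.1 and 19.7 TPM in Upf3b females against 72.7 and 136 TPM in control females. Neither sex overlapped, and the sex-adjusted difference was -2.60 ± 0.39 on the log2 scale. At 20 mg/kg the Upf3b females, at 4.73 and 8.73 TPM, lay below the control females at 37.5, 64.0 and 285 TPM. The males overlapped, at 52.7, 59.5 and 432 TPM after Upf3b and 72.8, 742 and 1273 TPM after control, and the difference was -2.64 ± 0.97. Within the 5 genes Mup17 alone passed the threshold for genes called, in the lower-dose comparison, where 0.295% of all genes did. None of the 5 passed in the 20 mg/kg comparison, where 2.52% did. There 2 of the 5 (Mup3 and Mup17) had an unadjusted p under 0.05, beside 1751 of all 9376 genes. The lower-dose call of Mup17 was lost when any 1 of replicates 2, 3 and 4 of Control-GalNAc-ASO 15 mg/kg was left out (0 of 5). At 20 mg/kg Mup17 passed without control replicate 3 (1 of 5, log2 difference -3.35). Since the genes were chosen on these groups, the counts and the lack of overlap are given as a description.

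For Mup20 the means of log2(TPM + 1) within a sex lay below control in males and above it in females. In females at 20 mg/kg that difference was only 0.13 ± 0.55, with mean TPM of 210.4 after Upf3b and 212.2 after control. Upf3b males at 20 mg/kg were at 3761, 3863 and 5288 TPM, all below the control males at 6321, 6689 and 7507 TPM (log2 difference -0.68 ± 0.17). Upf3b females at 20 mg/kg were at 173 and 247 TPM, within the control females' 105 to 344 TPM. At the lower doses the Upf3b females, at 274 and 343 TPM, were above the control females at 113 and 181 TPM (1.09 ± 0.37), and the males overlapped (-0.46 ± 0.25). The higher of those females was the shallow library, and leaving it out took the sex-adjusted difference from 0.24 to 0.04.

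Mup3 was below control in both sexes at 20 mg/kg. Males were at 1564, 2259 and 2507 TPM against 2689, 2765 and 3947 TPM, and females at 218 and 644 TPM against 726, 1053 and 1574 TPM. The sex-adjusted difference was -0.99 ± 0.30 there and -0.23 ± 0.32 at the lower doses, where both sexes overlapped.

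Mup7 was lower in Upf3b males at the lower dose, at 1021, 2305 and 2837 TPM against 6133 and 6590 TPM, and overlapped in females (75.5 and 207 against 47.7 and 138 TPM). At 20 mg/kg it overlapped in both sexes, and the differences over both sexes were -0.68 ± 0.52 and -1.29 ± 0.88. Mup21 was the 1 gene of the 5 with a higher fitted level after Upf3b in both comparisons, by 1.09 ± 0.81 and 0.53 ± 0.51, and it overlapped in each sex. Leaving out the shallow female moved the first of these to 0.42.

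The sum of the 5 genes in males was 9787, 13298 and 18083 TPM after Upf3b-GalNAc-ASO 10 mg/kg against 21624 and 22493 TPM, and 7163, 8121 and 9996 TPM after 20 mg/kg against 11653, 17901 and 18003 TPM, without overlap at either level. In females it overlapped at both. Its sex-adjusted log2 differences were -0.39 at the lower doses (-0.62 without the shallow female) and -1.06 at 20 mg/kg. The sum of all Mup symbols did not overlap in females at either level. In females it was 4490 and 4506 TPM after Upf3b against 7878 and 9179 TPM at the lower doses. At 20 mg/kg it was 1000 and 2465 TPM against 4988 to 12607 TPM. In males that sum did not overlap at the lower doses and overlapped at 20 mg/kg. The median over all genes tested was itself at -0.12 in the 20 mg/kg comparison. Of the calls there 36.9% were higher after Upf3b (51.4% with median-of-ratios scaling, under which the 5-gene sum differed by -0.97).

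**Figure D5:**
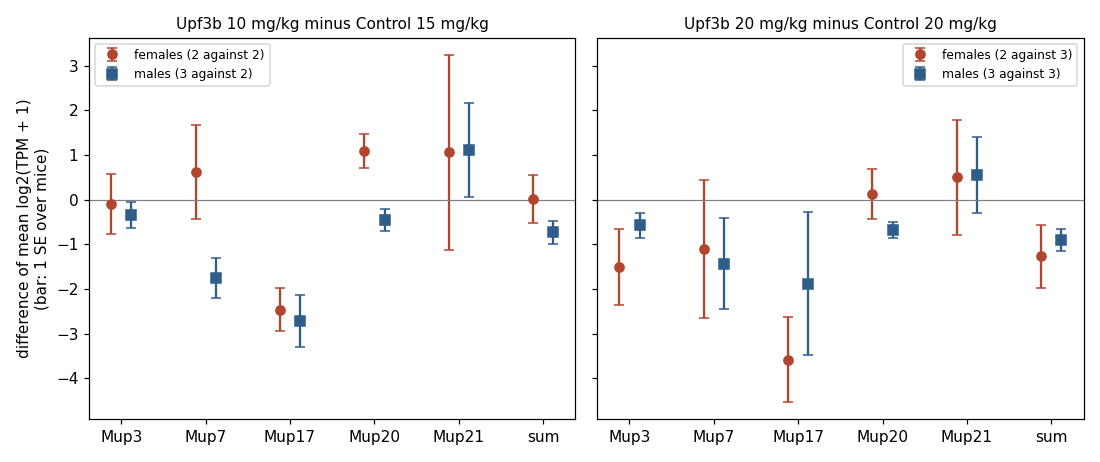
Difference in mean log2(TPM + 1) between Upf3b-GalNAc-ASO and Control-GalNAc-ASO mice for each gene and the sum, within females (circles) and males (squares), with 1 SE over mice, at the lower doses (left) and at 20 mg/kg (right). Mup17 lies below 0 in each panel and sex. Mup20 lies below 0 in males and above 0 in females, in females at 20 mg/kg by less than 1 SE (0.13 ± 0.55).

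Against DPBS, the control ASO groups were mostly higher and the Upf3b 20 mg/kg group mostly lower. These 4 comparisons share the DPBS mice. The control ASO at 15 mg/kg gave Mup3 at 4212 and 4630 TPM in males and 799 and 1476 TPM in females, above the DPBS mice of the same sex in each case (0.83 ± 0.23). At 20 mg/kg the Mup3 difference was 0.56 ± 0.21, beside a median over all genes of 0.15. The sum was higher by 0.70 and 0.49. No gene of the 5 and no gene of the whole table (0%) was called by limma in either comparison. Mup3 alone of the 5 had an unadjusted p under 0.05 in both. Over all genes it was under 0.05 for 644 of 8971 at 15 mg/kg and 905 of 9140 at 20 mg/kg.

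The sum after Upf3b-GalNAc-ASO 10 mg/kg differed from DPBS by 0.29 (0.03 without the shallow female), and after 20 mg/kg by -0.62. The 3 males at 20 mg/kg had less Mup20 than each of the 5 DPBS males, and Mup17 was -1.91 ± 0.79 from DPBS over both sexes. None of the 5 genes was called by limma at 10 mg/kg, where 0.376% of genes were, or at 20 mg/kg, where 1.13% were. With an unadjusted p under 0.05 there were 2 (Mup3 and Mup21) and 1 (Mup17), beside 747 of all 9032 genes and 1081 of all 9078.

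In males the order of the group means of the sum was Control-GalNAc-ASO 15 mg/kg (22058 ± 614 TPM, SD, n = 2), Control-GalNAc-ASO 20 mg/kg (15852 ± 3637, n = 3), DPBS (14624 ± 2825, n = 5), Upf3b-GalNAc-ASO 10 mg/kg (13722 ± 4164, n = 3) and Upf3b-GalNAc-ASO 20 mg/kg (8427 ± 1441, n = 3). The first stood apart from the second, and each later neighbour pair overlapped. In females it was Control-GalNAc-ASO 20 mg/kg (1623 ± 615, n = 3), Upf3b-GalNAc-ASO 10 mg/kg (1556 ± 667, n = 2), Control-GalNAc-ASO 15 mg/kg (1486 ± 422, n = 2), DPBS (884 ± 261, n = 6) and Upf3b-GalNAc-ASO 20 mg/kg (692 ± 391, n = 2). There only Control-GalNAc-ASO 15 mg/kg and DPBS did not overlap as neighbours.

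The other 43 Mup symbols, of which 14 could be tested in DPBS mice, include pseudogenes. Of the 14, 6 passed the filter only through the males, which favours a male excess, and they are left out of the count. Of the other 8, 4 were called higher in males and none lower, beside 0.667% of all genes. In ASO-treated mice 12 were tested, 4 of them only through the males, and of the other 8, 6 were called higher and none lower, beside 0.867%. Mup16 was the most abundant, with 365 to 6282 TPM in females and 2293 to 10443 TPM in males, and its difference of 0.98 ± 0.33 in DPBS mice was not called (adjusted p = 0.277) while that of 1.44 ± 0.31 in ASO-treated mice was (adjusted p = 0.00861). Mup11 and Mup1 differed by 3.66 ± 0.62 and 4.94 ± 0.64 in DPBS mice, with adjusted p of 0.00792 and 0.000684. Mup14 differed by 1.33 ± 0.36 in DPBS mice (adjusted p = 0.094) and by 3.22 ± 0.54 in ASO-treated mice (adjusted p = 0.00255). In the 20 mg/kg comparison of the ASOs 12 were tested, 9 of which passed the filter in both groups. Of these 9, 2 (Mup14 and Mup18) were called lower after Upf3b and none higher. Beside them 2.52% of all genes were called, and of those 236 calls 149 were lower. Mup10 and Mup19 were also lower but passed the filter only through the control mice, so they are left out of that count. Mup14 was at -2.27 ± 0.42 (adjusted p = 0.0117). None of 13 was called at the lower doses. Many of these symbols share reads with the 5 genes.

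Genes known to be male-biased or female-biased in mouse liver were examined beside the Mup genes. Of 16 male-biased genes tested in DPBS mice 5 passed the filter only through the males. Of the other 11, 9 were higher in males and none lower, beside 0.667% of all genes called higher. Of 14 female-biased genes 11 passed only through the females, and of the other 3, 2 were lower in males and none higher, where 67 of all 8998 genes were called lower. In ASO-treated mice 9 of 10 and 2 of 3 that passed in both sexes were called in those directions. There 79 of all 9109 genes were called higher in males and 97 lower. Elovl3, an elongase of very long fatty acids, was at 1.49 to 34.2 TPM in females and 143 to 1948 TPM in males, a DPBS difference of 5.52 ± 0.55 (adjusted p = 1.73e-05). Gstp1, a glutathione transferase, differed by 2.91 ± 0.20 and the nudix hydrolase Nudt7 by 1.59 ± 0.30. Serpina1e, a serine protease inhibitor of the alpha-1-antitrypsin family, differed by 5.03 ± 0.40. The steroid and drug hydroxylases Cyp2a5 and Cyp2a4 were lower in DPBS males, at -2.01 ± 0.22 and -1.32 ± 0.23. A1bg, a plasma glycoprotein gene, was at 23.1 to 1395 TPM in females and 0 to 20.5 TPM in males.

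After the Upf3b ASO at 20 mg/kg, 2 of 15 tested male-biased genes were lower than after the control ASO and none higher, beside 2.52% of all genes called in either direction. They were Serpina1e (-3.35 ± 0.48, adjusted p = 0.00132) and the organic anion transporter Slco1a1. At the lower doses Serpina1e was the 1 of 15 called (-3.41 ± 0.50, adjusted p = 0.00977), beside 0.295% of all genes. Of the female-biased genes 0 of 12 were called at 20 mg/kg, and at the lower doses 1 of 13 was, Acot3, an acyl-CoA thioesterase that passed the filter only through the control mice.

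Genes of growth hormone and STAT5 signalling were examined because this pathway is known to set the male pattern. Of 21 tested in DPBS mice, 1 was called, beside 1.41% of all genes, the prolactin receptor Prlr, which was lower in males (-1.90 ± 0.23, adjusted p = 5.61e-05). In ASO-treated mice Prlr and the feedback inhibitor Socs2 were lower in males among 19 tested, beside 1.93% of all genes, and Socs2 was at -1.09 ± 0.28 (adjusted p = 0.0385). The growth hormone receptor Ghr was called in neither sex comparison. Ghr was lower after Upf3b-GalNAc-ASO 20 mg/kg than after control (-1.51 ± 0.31, adjusted p = 0.0117) and than after DPBS (-1.58 ± 0.28, adjusted p = 0.00306), and at the lower doses its difference was -1.26 ± 0.32 (adjusted p = 0.0882). It was the 1 of 21 called against the control ASO at 20 mg/kg, beside 2.52% of all genes. Against DPBS 2 of 20 were called, beside 1.13% of all genes, the other being the glucocorticoid receptor gene Nr3c1 (-1.20 ± 0.30, adjusted p = 0.0468). The most abundant tested genes of this list, Igf1, Hnf4a, Onecut1 and Igfals, were called in neither sex comparison. Of the 5 other liver lipocalins tested, 0 were called by limma in any of the 9 comparisons. The share of all genes called in these comparisons was 0% to 2.52%, so no call among so few genes sets them apart. Ambp, Rbp4, Orm1 and Apom were the most abundant.

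The genes outside the family most like the 5-gene sum over the 31 mice, among 9822 candidates, were Ddx3y (r = 0.952), Cyp4a12b (0.951), Elovl3 (0.951), Cyp4a12a (0.947) and C8a (0.932). None of the 5 overlapped between the sexes, and C8a, a complement component, was at 42.5 to 111 TPM in females and 144 to 390 TPM in males. The mice form 2 clusters by sex, so these pooled values mostly order the sexes. With group and sex means removed they were Dnajc22 (0.766), Ubp1 (0.715), C8a (0.708), Yod1 (0.706) and Marveld2 (0.704). These are the highest of many values over 31 libraries that differ in depth.

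Of the hepatocyte markers 6 of 6 were detected, with a summed level at 20863 to 71173 TPM. That sum was lower in DPBS males (33830 to 42489 TPM) than in DPBS females (52134 to 71173 TPM), opposite to the Mup genes. Kupffer cell markers summed to 58.8 to 380 TPM, endothelial markers to 47.0 to 146 TPM, stellate markers to 71.0 to 227 TPM, and lymphocyte markers to 0 to 27.4 TPM. Cholangiocyte markers summed to 199 TPM in a male of Upf3b-GalNAc-ASO 20 mg/kg and to 6.96 to 34.4 TPM in the other mice. The part of cell make-up in the Mup levels was not tested.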

How the data were processed

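Liver RNA of 31 hFIX-R29X mice was sequenced, 1 library per mouse. The labels name a QuantSeq 3′ kit, whereas the study's methods name a TruSeq kit. The authors quantified reads with Salmon 0.7.2 (bcl2fastq 2.17.1.14 per the labels) against Ensembl 81 mouse cDNA of GRCm38 and deposited 1 TPM value per gene symbol and mouse. Symbols turned into dates were removed, which left 31172. In each mouse 70.1% to 81.6% of values were whole multiples of the value of 1 read (tolerance 0.02), the same for every gene, so depth was read from that step and no count test was used. A value under 3 reads (0.406 to 2.94 TPM) was taken as at the limit, for counting error only.

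Genes whose median reached 5 TPM in a compared group were fitted with limma 3.58.1 (R 4.3.3, trend and robust) on log2(TPM + 1), with sex as covariate in treatment comparisons and treatment group in the sex comparison of ASO-treated mice. Fold changes are on that scale and understate those of low genes. P-values were adjusted by Benjamini-Hochberg over all genes tested and called under 0.05. Tables and figures used Python 3.11.15, pandas 2.3.3, numpy 2.4.6 and matplotlib 3.10.9. The fit was tested on simulated data with 200 genes changed. It called 60% of them in the DPBS sex comparison and 40.5% in the lower-dose comparison of the ASOs. Of the genes it called, 3.23% and 3.57% had not been changed. Many real changes can therefore go uncalled.

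The 5 genes and all lists were chosen with earlier results of these data known. Named were the 5 genes, the 4 other Mup genes and at most 4 tested genes of each list with the highest mean TPM, and the 5 genes most like the sum by Pearson r. Other list genes named in counts of 5 or fewer were named after their values were seen. Alternatives were other pseudocounts, no filter, 2 other scalings, no sex covariate, a replicate block, 1 fit of all mice, the sum of all Mup symbols and leaving out each mouse. Mice treated with a Upf1 ASO were not analysed here.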

Additional observations from a re-analysis of the deposited data

Results flagged for a closer look

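Mup17 in the Upf3b-GalNAc-ASO 20 mg/kg group was flagged because one male, replicate 4, stood far above the rest at 431.6 TPM, with the next mouse at 59.48 TPM. The gap was 0.872 of the range of the 5 mice, against a critical value of 0.71. The group mixes 3 males and 2 females. Over the 36 sets of values examined, chance flags about 1 in 20.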

How the results depend on the processing

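Of 1402 alternative values, 1338 kept their direction and their side of the threshold. Leaving out 1 mouse made 945 of the 1402, and such fits share most of their mice. Of the 296 for the sex differences none was reversed, 6 lost a call and 1 gained a call. These include Mup21, which passed the filter only through the males. The limits are the small groups within a sex, the low reads of Mup21 in females, and reads shared by Mup7, Mup17 and other Mup genes. The cause of each change below was not tested.

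For the sex differences, the sum of all Mup symbols differed by 2.62 in DPBS mice and 2.85 in ASO-treated mice. Mup17 was called with 1 fit of all 31 mice (adjusted p = 0.000199 by limma). That fit takes a single sex difference over all treatment groups, so it is not a difference in the DPBS mice alone. For the interaction, the sum of all Mup symbols gave 0.70, and leaving out 1 mouse gave -0.43 to 0.10 for the 5-gene sum and -0.70 to 0.83 for Mup21.

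At the lower doses the number of the 5 genes called against control was 0 with no filter, 0 with no sex covariate and 0 with 1 fit of all mice, and 0 to 1 on leaving out 1 mouse. Mup20 there ran from -0.0272 to 0.48, and all Mup symbols gave -0.96. At 20 mg/kg leaving out 1 mouse gave 0 to 1 called, and Mup20 was 0.16 with no sex covariate.

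Against DPBS, leaving out 1 mouse gave -0.20 to 0.61 for Mup21 after Control-GalNAc-ASO 15 mg/kg, -0.00541 to 0.37 for Mup20 and -0.41 to 0.18 for Mup21 after 20 mg/kg, -0.14 to 0.87 for Mup7 after Upf3b-GalNAc-ASO 10 mg/kg, and -0.43 to 0.0147 for Mup20 and -0.35 to 0.80 for Mup21 after 20 mg/kg. After Control-GalNAc-ASO 20 mg/kg Mup21 was 0.0755 with a pseudocount of 0.5 TPM and 0.17 with no sex covariate. For Upf3b-GalNAc-ASO 10 mg/kg the sum was -0.31 over all Mup symbols and 0.85 with no sex covariate. For 20 mg/kg it was -1.21 and -0.0467, and with no sex covariate Mup7 was 0.31 and Mup20 0.66.

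Replicate numbers did not pair the mice: residuals of same-numbered mice correlated at -0.18 to 0.36 at the lower doses and -0.26 to 0.10 at 20 mg/kg. With a replicate block 1 of the 5 genes was called after Upf3b-GalNAc-ASO 20 mg/kg against DPBS (Mup17), and Mup20 there was 0.0468. The block also gave Mup21 at -0.13 and 0.0837 for the control doses against DPBS and Mup7 at -0.58 for Upf3b-GalNAc-ASO 10 mg/kg. It moved the genes called from 27 to 95 at the lower doses and from 236 to 45 at 20 mg/kg, and against DPBS from 34 to 9 and from 103 to 42.

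Counts over all genes also moved by more than 1.5 times in these cases. A single sex difference fitted over all 31 mice gave 234, against 127 in the DPBS mice alone. The lower doses gave 17 and 56 with pseudocounts of 0.5 and 5 TPM, 5 with no filter and 10 with no sex covariate. The 20 mg/kg comparison gave 67 with no filter, and Upf3b-GalNAc-ASO 10 mg/kg against DPBS gave 61 with 1 fit of all mice. The interaction gave 3 genes with a pseudocount of 5 TPM and 2 with no filter, against 1. Control-GalNAc-ASO 15 mg/kg against DPBS gave 2 with no filter and 2 with the block, and 20 mg/kg gave 1 with a pseudocount of 5 TPM, against 0 in each.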
